A study of Mus musculus with 8 samples.

Results

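The Sox9 gene desert is the stretch of mouse chromosome 11 on both sides of Sox9, from the end of Kcnj2 to the nearer end of Slc39a11, which are its closest protein-coding neighbours. Its members are the 1-kb tiles of a fixed grid that lie inside this stretch, leaving out the Sox9 gene body with 1 kb on each side. This rule gave 2159 of the 2725532 tiles of chromosomes 1 to 19, X and Y (0.0792%). The upstream side, between Kcnj2 and Sox9, holds 1704 tiles (mm10, chr11:111077001-112781000), and the downstream side, between Sox9 and Slc39a11, holds 455 tiles (chr11:112789001-113244000). By this rule there are 0 protein-coding genes inside besides Sox9, and 11 other genes lie there, namely 6 lincRNAs, 4 processed pseudogenes and 1 processed transcript. The cloned element IREN19 lies in the downstream side.

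SOX9 is a transcription factor with an HMG box that binds DNA in the minor groove, and in the adult spinal cord it is known from astrocytes and ependymal cells. Long stretches without coding genes often flank genes of developmental transcription factors and hold enhancers that act over great distances. Around Sox9 such distant elements are known from cartilage and gonad, and deletions or breaks far from the gene are linked to skeletal and sex-development disorders.

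SOX9 was profiled by CUT&Tag, in which an antibody guides a transposase to a chromatin protein so that nearby DNA is cut out and sequenced. All 8 libraries came from spinal cord nuclei of wild-type (WT) C57BL/6 mice aged 2 to 6 months, sorted on the DNA dye 7AAD with no selection of a cell type. For age at entry into the study, the paper's methods give a narrower range. The 4 groups were SOX9 libraries of uninjured cords, SOX9 libraries of cords taken 1 day after a thoracic contusion (1 d.p.i.), and the secondary-only controls of both, which are nuclei of the same samples that received no SOX9 antibody. Each group held 1 male (M) and 1 female (F) library. For sequencing, 2 to 4 animals were pooled for each condition, and the number behind each library was not given in the sources used here, so p-values measure the spread between these samples only. As the cords were not separated into cell types, fewer SOX9-bearing cells and less binding per cell cannot be told apart.

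The deposited coverage gave 1891276 (M) and 7216730 (F) fragments in uninjured SOX9 libraries, and 2529356 (M) and 2385009 (F) in injured ones. Of these, 1232, 3941, 1621 and 1514 lay in the desert, in the same order, which is 0.0651% (95% Wilson interval 0.0616% to 0.0689%), 0.0546% (0.0529% to 0.0563%), 0.0641% (0.0610% to 0.0673%) and 0.0635% (0.0604% to 0.0668%) of each library. The uninjured F library, the deepest, thus had the lowest share. In the desert the controls held 9 fragments (uninjured M), 25 (uninjured F), 25 (1 d.p.i. M) and 4 (1 d.p.i. F). Intervals cover counting error only. The libraries share fragments, since 52 of the 63 control fragments in the desert (82.5%) had the start and the end of a fragment of a SOX9 library, and 0 did after a shift of 1 kb. Between SOX9 libraries the shared part was 1.95% to 4.38% of a library's fragments in the desert. Controls are therefore given below as values measured the same way, and not as an independent background.

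Levels below are the mean coverage of a region divided by the library's own mean over the genome, so that 1 is the average of the genome. Over the whole desert the SOX9 level was 0.835 in M and 0.684 in F of uninjured cords, and 0.815 in M and 0.796 in F at 1 d.p.i. All 4 libraries were below the genome average, and both libraries of 1 d.p.i. lay between the uninjured ones. Uninjured libraries averaged 0.760 ± 0.107 (SD, n = 2) and injured ones 0.806 ± 0.0135 (SD, n = 2), which is a ratio of 1.06 (exact two-sided permutation test, p = 1). With 2 libraries against 2, p cannot go below 0.333. Without the uninjured F library the ratio was 0.965.

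The control levels over the desert were 0.426 in M and 0.710 in F of uninjured cords, and 0.546 in M and 0.486 in F at 1 d.p.i. The control level of uninjured F was above the SOX9 level of the same nuclei sample, and the other 3 controls were below every SOX9 library. SOX9 libraries averaged 0.783 ± 0.0674 (SD, n = 4) and controls 0.542 ± 0.122 (SD, n = 4), with a quotient of 1.44 that did not pass the test (exact two-sided permutation test, p = 0.0571, smallest possible 0.029). That test takes the libraries as independent, although each control shares its nuclei sample with a SOX9 library. Within the 4 samples, an alternative added later, 3 had SOX9 above control (exact two-sided test over signs, p = 0.25), and no p under 0.125 is possible. Without the uninjured F control the ratio was 1.61 and the exact permutation p was 0.029, the smallest possible there. In an alternative chosen after seeing the data, the control fragments shared with a SOX9 library were left out over the genome. The ratio was then 2.41 (exact permutation p = 0.0571). The uninjured F and 1 d.p.i. M controls kept 5 and 6 desert fragments, at levels of 0.748 and 0.550. The uninjured M and 1 d.p.i. F controls kept 0 in the desert, from 1512 and 951 over the genome, too few to set a level. As the ratio of 2.41 rests on these values of 0, no conclusion is drawn from it.

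The desert was uneven, and its SOX9 coverage was denser downstream of Sox9 than upstream. On the upstream side the level was 0.514 in M and 0.308 in F of uninjured cords, and 0.408 in M and 0.428 in F at 1 d.p.i. On the downstream side it was 2.04 in M and 2.09 in F of uninjured cords, and 2.34 in M and 2.18 in F at 1 d.p.i. The downstream side was thus above the genome average and the upstream side below it in each of the 4 SOX9 libraries. Within a library, the downstream level over the upstream level was 3.96 in M and 6.80 in F of uninjured cords, and 5.75 in M and 5.08 in F after injury, with a mean of 5.40 ± 1.19 (SD, n = 4). The controls pointed the same way, at 4.11 in uninjured F, 2.86 in 1 d.p.i. M and 3.66 in 1 d.p.i. F, and at 68.5 in uninjured M, whose upstream value rests on 1 fragment. Control levels downstream were 1.92, 1.76, 1.12 and 1.14 in the order uninjured M and F and 1 d.p.i. M and F, from 8, 12, 10 and 2 fragments. SOX9 over control was 1.46 there (exact two-sided permutation test over libraries, p = 0.029, the smallest possible) and 1.43 upstream (p = 0.286 by the same exact test), which again takes the libraries as independent. Within the nuclei samples SOX9 was above its control in 4 of 4 downstream (exact two-sided test over signs, p = 0.125, the smallest possible) and in 3 of 4 upstream (p = 0.5 by the same exact test). The tests of single sides against controls were not among the planned ones, and they include the shared fragments.

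With 2 libraries in a group, no change on either side could pass the exact test. The upstream means were 0.411 ± 0.146 (SD, n = 2) in uninjured cords and 0.418 ± 0.0143 (SD, n = 2) at 1 d.p.i., which is a ratio of 1.02 (exact two-sided permutation test, p = 1), and the groups overlapped. The downstream means were 2.07 ± 0.0401 (SD, n = 2) before and 2.26 ± 0.118 (SD, n = 2) after injury, which is a ratio of 1.09 (exact two-sided permutation test, p = 0.333, the smallest possible). Both injured libraries exceeded both uninjured ones downstream, by 1.15 times in M and 1.04 times in F. The ratio of downstream to upstream averaged 5.38 ± 2.003 (SD, n = 2) in uninjured cords and 5.41 ± 0.468 (SD, n = 2) at 1 d.p.i., a quotient of 1.01 (exact two-sided permutation test, p = 1). Without the uninjured F library the upstream ratio was 0.813, and the quotient was 0.797 without the uninjured M library.

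By distance from the Sox9 start, the downstream tiles beyond 250 kb carried the high level. In these 211 tiles (chr11:113033001-113244000) it was 3.36 in M and 3.86 in F of uninjured cords, and 3.82 in M and 3.61 in F at 1 d.p.i. Most of this stretch belongs to the lincRNA gene 2610035D17Rik, which runs on the minus strand at chr11:113043895-113201838. Nearer to Sox9 the downstream levels were lower, with means over the 4 SOX9 libraries of 1.08 within 50 kb, 0.595 from 50 to 100 kb and 0.894 from 100 to 250 kb. The controls held 0 to 3 fragments a library in each of these nearer classes, too few for a quotient. Beyond 250 kb they read 3.42, 1.98, 1.95 and 0.519 from 6, 7, 8 and 1 fragments, in the order uninjured M and F and 1 d.p.i. M and F, and the first was above the SOX9 library of its sample. In the class from 100 to 250 kb, which holds IREN19, the level was 0.941 in M and 0.535 in F of uninjured cords, and 1.08 in M and 1.02 in F at 1 d.p.i., so that the groups did not overlap. They did not overlap within 50 kb either, at 0.907 in M and 0.865 in F before injury and 1.56 in M and 0.993 in F after it. These differences were not among the planned tests. Upstream, the mean was 0.662 within 50 kb, 0.309 from 500 to 1000 kb and 0.490 beyond 1000 kb, and no class reached the genome average in any SOX9 library.

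Single tiles showed the same division. A tile was called high when the mean of its 4 SOX9 levels was at least 3, which held for 120 tiles of the desert (5.56%) and 6.32% of all tiles. Of these, 113 were downstream (24.8% of that side) and 7 upstream (0.411%). Taken library by library, the downstream share of tiles at 3 or more was 24.0% in M and 24.0% in F of uninjured cords, and 25.7% in M and 25.5% in F at 1 d.p.i. The upstream share was 2.88% (M), 0.352% (F), 1.76% (M) and 1.94% (F) in the same order, lowest in the deepest library. At the other end, 281 tiles had no coverage in any SOX9 library, of which 280 were upstream and 1 downstream. This was 16.4% of upstream and 0.220% of downstream tiles, against 16.2% of all tiles, which include those with unknown bases. The upstream share was thus near that of all tiles, and the downstream share was far below it.

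The 120 high tiles formed 43 runs of adjacent tiles, 16 of them longer than 1 tile. The longest run covered 30 tiles of 2610035D17Rik, exons included (chr11:113160001-113190000), and began 377777 bp from the Sox9 start. Its level was 6.10 in M and 8.06 in F of uninjured cords, and 7.25 in M and 5.09 in F at 1 d.p.i. The groups overlapped there. The next run, of 11 tiles in an intron of the same gene (chr11:113128001-113139000), stood at 5.44 in M and 4.21 in F of uninjured cords, and 5.26 in M and 5.72 in F at 1 d.p.i. Both runs were over 4 times the genome average in every SOX9 library. Their tiles were chosen by the mean over these same libraries, which favours high values. In the controls the longest run read 9.29, 0.531, 0 and 3.65 and the next 0, 0, 0.942 and 0, in the order uninjured M and F and 1 d.p.i. M and F, and the value of 9.29 was above that of the SOX9 library of its sample.

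Among the 10 tiles with the highest mean is tile_2104 in an intron of 2610035D17Rik (chr11:113188001-113189000), at 12.1 in M and 24.4 in F of uninjured cords, and 22.3 in M and 5.05 in F at 1 d.p.i. Its M and F libraries thus stood in opposite order in the 2 conditions. The start of 2610035D17Rik lies in tile_2117 (chr11:113201001-113202000), whose level was 9.38 in M and 12.7 in F of uninjured cords, and 12.6 in M and 10.6 in F at 1 d.p.i. Of the 10 highest tiles, 7 lie in this gene, namely these 2 with tile_2048, tile_2088, tile_2089, tile_2090 and tile_2099.

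Outside 2610035D17Rik, the 10 highest tiles include 1 on the upstream side. This is tile_436 (chr11:111512001-111513000), intergenic and 1269223 bp from the Sox9 start, with a level of 14.7 in M and 19.2 in F of uninjured cords, and 11.7 in M and 8.78 in F at 1 d.p.i. The 1 d.p.i. values were below the uninjured ones in both sexes, and limma gave a log2 change of -0.70 (SE 0.60, adjusted p = 0.989). Its controls held 1 (uninjured F) and 2 (1 d.p.i. M) fragments, which are levels of 36.4 and 84.1. Closest to Sox9 among the 10 was tile_1727 (chr11:112811001-112812000), intergenic and 28777 bp downstream of the Sox9 start. Its level was 9.60 in M and 7.38 in F of uninjured cords, and 21.2 in M and 9.03 in F at 1 d.p.i., so 1 library stood well above the other 3 and the uninjured M value was above that of 1 d.p.i. F. The log2 change from limma was 0.69 (SE 0.61, adjusted p = 0.989). Its controls held 1 fragment each in uninjured F and 1 d.p.i. M, which are levels of 119 and 60.0. In controls this shallow a single fragment in a tile can give a level above that of the SOX9 libraries.

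Directly beside Sox9 the desert was mostly low. Of the 5 tiles on each side nearest to the gene body, tile_1703 (chr11:112779001-112780000), in an intron of BC006965, was the highest, at 1.17 in M and 2.81 in F of uninjured cords, and 5.66 in M and 2.84 in F at 1 d.p.i. It held 2 to 7 fragments in a SOX9 library, and the other 9 tiles (tile_1700 to tile_1702 and tile_1704 to tile_1709) averaged 0.188 to 1.34. The Sox9 promoter itself, taken as 1 kb to each side of the start and outside the desert by its definition, read 4.39 in M and 3.77 in F of uninjured cords, and 9.45 in M and 4.63 in F at 1 d.p.i., from 7, 23, 18 and 7 fragments. Both injured values were above both uninjured ones there, and this difference was not among the planned tests.

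The genes at the borders were covered at their starts. The promoter of Kcnj2, which encodes an inwardly rectifying potassium channel, read 4.02 in M and 10.0 in F of uninjured cords, and 8.04 in M and 7.34 in F at 1 d.p.i. The promoter of Slc39a11, which encodes a zinc transporter, read 2.77 in M and 6.65 in F of uninjured cords, and 8.68 in M and 2.66 in F at 1 d.p.i. The groups overlapped at both. Controls had no coverage at Kcnj2, and at Slc39a11 they had 1 fragment in uninjured F (a level of 42.5), 1 in 1 d.p.i. F (86.6) and 0 in M, where the SOX9 libraries held 5, 36, 18 and 5. Beyond the borders, the promoter of Kcnj16, another potassium channel gene, was at 0 in both uninjured libraries and reached 0.483 in M and 0.461 in F after injury, from 1 fragment each, with 1 fragment also in the control of 1 d.p.i. M (25.7). The promoter of Sstr2, a somatostatin receptor gene, read 2.35 in M and 3.09 in F of uninjured cords, and 2.51 in M and 0.508 in F at 1 d.p.i. That of Cog1, whose product belongs to a Golgi tethering complex, read 2.51 in M and 9.07 in F of uninjured cords, and 11.2 in M and 5.08 in F at 1 d.p.i. This promoter overlaps that of Slc39a11, so the values of the 2 are not separate. The groups overlapped at Sstr2 and Cog1 too, and single fragments set them apart at Kcnj16.

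Of the 11 noncoding genes and pseudogenes inside, 10 have their start in a desert tile, and the start tile of BC006965 falls in the stretch left out around Sox9. The start tile of BC006965 averaged 6.35 over the 4 SOX9 libraries. Among the 10 inside the desert, the highest apart from 2610035D17Rik was that of its neighbour 4732490B19Rik, a lincRNA gene (chr11:113209001-113210000). Its level was 2.145 in M and 1.89 in F of uninjured cords, and 5.50 in M and 9.61 in F at 1 d.p.i., from 4, 9, 7 and 7 fragments. The groups did not overlap, but limma did not call the tile (log2 change 1.63, SE 0.73, unadjusted p = 0.0250, adjusted p = 0.989), and the log2 change was 0.78 when libraries were thinned to the smallest. The start tile of the pseudogene Gm11675 read 0 in M and 1.76 in F of uninjured cords, and 1.34 in M and 10.6 in F at 1 d.p.i., with 6 fragments behind the highest value (log2 change from limma 2.09, SE 0.98, adjusted p = 0.989). For Gm11681 the values were 2.43 in M and 1.92 in F of uninjured cords, and 0.925 in M and 0.286 in F at 1 d.p.i., from 3, 5, 1 and 1 fragments (log2 change from limma -1.33, SE 1.15, adjusted p = 0.989). In the other 6 start tiles (Gm11674, Gm11676, Gm11677, Gm11679, Gm11680 and 4933434M16Rik) the mean over the 4 SOX9 libraries was between 0 and 0.716.

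To ask which tiles changed at 1 d.p.i., limma was fitted to all tiles of the genome with a sum of at least 4 over the SOX9 levels. Of the desert, 424 of 2159 tiles entered the test and 0 were called at an adjusted p under 0.05, against 0.00516% of the 795162 tiles tested over the genome (41 tiles). The smallest adjusted p in the desert was 0.989. At an unadjusted p under 0.05, 11 desert tiles were higher at 1 d.p.i. and 8 lower, where the genome had 1.83% higher and 1.65% lower. The fitted change was above 0 in 231 tiles and below 0 in 193, with a median log2 change of 0.14 in the desert and -0.01 over all tested tiles. The filter keeps tiles with high coverage in any SOX9 library, so the 424 do not stand for the rest. No other tool was run.

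Bins of 10 kb, which gather more fragments, gave the same count of 0 from limma. Of 215 bins in the desert 30 were tested and 0 were called, against 0.056% of 80347 bins over the genome (45 bins), and the smallest adjusted p was 0.916. At an unadjusted p under 0.05, 4 desert bins were higher at 1 d.p.i. and 0 lower, where 4.88% of the genome's bins passed in either direction, 2228 of them higher and 1692 lower. The median log2 change was 0.09 in the desert bins and -0.01 over all. The count of 0 tiles does not show that tiles kept their level. On simulated data with 4-fold changes, the tile fit called none of the changed tiles drawn at its filter. It called few in a further run on tiles of higher coverage. The bin fit called most of the changed bins. The spread between simulated libraries was a fixed setting and not taken from these data, so real libraries may give fewer calls. Smaller changes were not simulated. Most bins of the desert were not tested.

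IREN19 is a candidate injury-responsive element that was cloned for the study's viral enhancer library, and it lies in the desert. It spans 1188 bp of intergenic sequence (chr11:112921332-112922519) at 139108 bp from the Sox9 start, and both cloning primers matched mm10 at its ends. Its SOX9 level was 1.27 in M and 0.211 in F of uninjured cords, and 3.33 in M and 1.11 in F at 1 d.p.i., from 1, 1, 3 and 1 fragments. The uninjured M value was above that of 1 d.p.i. F, so the groups overlapped. Uninjured libraries averaged 0.743 ± 0.752 (SD, n = 2) and injured ones 2.22 ± 1.57 (SD, n = 2), which is a ratio of 2.99 (exact two-sided permutation test, p = 0.667). By fragments, 2 of 9108006 in uninjured cords stood against 4 of 4914365 at 1 d.p.i., a ratio of 3.71 with an exact 95% interval of 0.531 to 41.0. With 1 kb added on each side the level was 1.60 in M and 0.378 in F of uninjured cords, and 1.52 in M and 1.12 in F at 1 d.p.i., a ratio of 1.34. Leaving out 1 library moved the ratio to 10.5 (without uninjured M), 1.74 (without uninjured F), 1.496 (without 1 d.p.i. M) or 4.48 (without 1 d.p.i. F).

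The controls had 0 fragments in IREN19, which allows up to 3 fragments in each, or a level of up to 303 in M and 147 in F of uninjured cords, and 130 in M and 631 in F at 1 d.p.i. They therefore set no usable limit on the background of a single element. Of the tiles that IREN19 overlaps, tile_1837 (chr11:112921001-112922000) read 3.84 in M and 0.251 in F of uninjured cords, and 1.78 in M and 0 in F at 1 d.p.i., and tile_1838 (chr11:112922001-112923000) read 0 (M) and 0.356 (F) and then 2.68 (M) and 1.77 (F). In both M and F the first tile was thus lower and the second higher at 1 d.p.i., each on 0 to 2 fragments a library (limma adjusted p = 0.989 for both, log2 changes -0.76 and 2.04). The tiles beside them, tile_1835, tile_1836, tile_1839 and tile_1840, averaged 0.692 to 1.12.

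The high tiles were also rich in G and C. Mean GC content was 42.0% in the desert and 41.7% over all tiles without N, but 47.6% downstream and 40.5% upstream of Sox9. It was 50.2% in the 120 high tiles, 41.5% in the rest of the desert and 50.6% in all high tiles of the genome. With the desert tiles cut into 4 classes by GC content, in the lowest class the SOX9 levels were 0.338 in M and 0.199 in F of uninjured cords, and 0.290 in M and 0.280 in F at 1 d.p.i., and in the highest class they were 1.79 (M), 1.71 (F), 1.92 (M) and 1.85 (F). The level rose from class to class in every SOX9 library. In the controls the highest class also had the highest level. It was 1.61 in M and 1.22 in F of uninjured cords, and 0.932 in M and 0.959 in F at 1 d.p.i. The lower classes did not rise in sequence in every control. Across the 2159 tiles Spearman's rho between GC content and level was 0.328 to 0.394 in the 4 SOX9 libraries, and 0.380 to 0.532 over all tiles. Neighbouring tiles share fragments and base composition, and the part of GC content in the difference between the sides was not tested. Repeats made up 25.6% of the desert and 36.4% of all tiles.

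Short motifs were searched on both strands of each tile, and matches may overlap. They were AACAAT and ACAAAG for SOX factors, TGAGTCA for AP-1 (TGACTCA on the other strand) and TTGGCA for the NFI recognition site arm. AACAAT was in 51.8% of desert tiles and 53.7% of all tiles, ACAAAG in 60.5% and 63.5%, TGAGTCA in 15.6% and 14.7%, and TTGGCA in 42.7% and 40.8%. The sides differed most in AACAAT, held by 57.1% of upstream and 32.1% of downstream tiles. High tiles of the desert held AACAAT in 31.7% of cases, ACAAAG in 58.3%, TGAGTCA in 17.5% and TTGGCA in 47.5%, and the high tiles of the genome in 29.8%, 55.1%, 17.3% and 42.0%. Tiles with AACAAT had the lower SOX9 level, at 0.688 in M and 0.542 in F of uninjured cords, and 0.640 in M and 0.625 in F at 1 d.p.i., against 0.994 (M), 0.838 (F), 1.00 (M) and 0.980 (F) in tiles without it. In the order uninjured M and F and 1 d.p.i. M and F, the controls read 0.177, 0.579, 0.513 and 0.580 with AACAAT. Without it they read 0.694, 0.851, 0.581 and 0.384, so only 1 d.p.i. F went the other way. The part of GC content in this difference was not tested. Tiles with ACAAAG were lower too in each SOX9 library, at 0.782 in M and 0.656 in F of uninjured cords, and 0.745 in M and 0.785 in F at 1 d.p.i., against 0.917 (M), 0.729 (F), 0.923 (M) and 0.813 (F). Tiles with TTGGCA were higher in each, at 0.865 in M and 0.736 in F of uninjured cords, and 0.919 in M and 0.835 in F at 1 d.p.i., against 0.813 (M), 0.646 (F), 0.738 (M) and 0.767 (F). For TGAGTCA the order depended on the library. A match is a run of letters and not a measured site.

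The 300 bases around the highest SOX9 coverage of 4 tiles show what these places look like, with motif matches in capitals and the plus strand of mm10 printed. They were taken for 1 of the highest tiles inside 2610035D17Rik (tile_2104, chr11:113188366-113188665, intron), the upstream one among the 10 highest (tile_436, chr11:111512630-111512929, intergenic), the tile that holds the start of 2610035D17Rik (tile_2117, chr11:113201455-113201754, a window that ends short of the start itself) and the one closest to Sox9 (tile_1727, chr11:112811206-112811505, intergenic). Of chromosome 11 windows of 300 bases, 17.7% hold AACAAT, 25.1% ACAAAG, 4.95% TGAGTCA and 14.5% TTGGCA. The window of tile_436 holds ACAAAG on the minus strand and AACAAT on the plus strand, that of tile_2104 holds ACAAAG on the minus strand, and the other 2 hold none of the letters searched. GC content was 55.3% in the window of tile_2104, 42.7% in tile_436, 64.3% in tile_2117 and 50.7% in tile_1727.
tile_2104: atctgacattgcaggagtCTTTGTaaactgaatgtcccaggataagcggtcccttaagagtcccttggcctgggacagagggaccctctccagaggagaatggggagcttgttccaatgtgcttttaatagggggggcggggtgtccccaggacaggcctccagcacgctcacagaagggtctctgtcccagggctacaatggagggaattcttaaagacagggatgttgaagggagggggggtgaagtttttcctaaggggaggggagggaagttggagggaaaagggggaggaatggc
tile_436: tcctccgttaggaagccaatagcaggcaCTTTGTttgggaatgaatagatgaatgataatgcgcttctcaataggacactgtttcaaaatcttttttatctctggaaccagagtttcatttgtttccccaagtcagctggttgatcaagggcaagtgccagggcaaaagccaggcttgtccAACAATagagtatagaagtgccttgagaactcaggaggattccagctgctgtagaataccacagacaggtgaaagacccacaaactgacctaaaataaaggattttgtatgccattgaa
tile_2117: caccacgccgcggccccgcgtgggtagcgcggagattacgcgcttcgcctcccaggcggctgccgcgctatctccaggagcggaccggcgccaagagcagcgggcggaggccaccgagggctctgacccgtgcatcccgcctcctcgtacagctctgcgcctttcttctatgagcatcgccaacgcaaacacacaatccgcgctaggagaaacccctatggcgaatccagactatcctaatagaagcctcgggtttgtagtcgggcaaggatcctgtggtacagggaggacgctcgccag
tile_1727: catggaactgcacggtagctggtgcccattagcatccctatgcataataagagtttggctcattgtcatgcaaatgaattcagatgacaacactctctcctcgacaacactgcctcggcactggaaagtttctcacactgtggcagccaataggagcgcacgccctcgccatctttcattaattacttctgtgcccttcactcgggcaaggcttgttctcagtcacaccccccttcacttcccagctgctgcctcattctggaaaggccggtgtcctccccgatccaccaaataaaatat

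IREN19 holds 1 match each to TGAGTCA (chr11:112921832-112921838, minus strand), ACAAAG (chr11:112921971-112921976, minus strand) and TTGGCA (chr11:112922454-112922459, plus strand), and 0 to AACAAT. Of chromosome 11 windows of 1188 bases, 18.3% hold TGAGTCA, 68.2% ACAAAG, 46.5% TTGGCA and 52.4% AACAAT. The AP-1 letters are shown with 30 bases on each side (chr11:112921802-112921868, plus strand, match in capitals), since AP-1 factors are known as early responders to tissue injury.
IREN19 AP-1 match: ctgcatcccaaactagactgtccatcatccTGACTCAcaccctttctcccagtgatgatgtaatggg

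Set beside other gaps between neighbouring protein-coding genes, the sides of the desert fell at different places. Only gaps on chromosomes 1 to 19 with at most 10% of unknown bases were used, which left out 13 of those of 250 to 1000 kb below. Gaps run to the gene ends, so that each side here holds 1 tile more than in the desert. Among 248 gaps of at least 1 Mb, the tiles between Kcnj2 and Sox9 ranked 64 by mean SOX9 level, at 0.418 where the other gaps had a median of 0.343 and a range of 0.216 to 0.949. By library its rank was 59 in M and 59 in F of uninjured cords, and 50 in M and 88 in F at 1 d.p.i., and by GC content it was 39. The 36 other gaps within 1 point of its GC content had a median of 0.433, above its own level. The gap between Sox9 and Slc39a11 is shorter and was set beside gaps of 250 to 1000 kb, a range chosen after its level was seen. Among 862 such gaps it ranked 10 by mean SOX9 level, at 2.16 against a median of 0.491, and by library 11 in M and 12 in F of uninjured cords, and 11 in M and 8 in F at 1 d.p.i. The 33 others within 1 point of its GC content had a median of 1.12 and a highest level of 4.41. By GC content it ranked 29, and by level in the controls 34 in M and 35 in F of uninjured cords, and 103 in M and 142 in F at 1 d.p.i. Across gaps of both kinds the SOX9 level went with GC content, with a Spearman's rho of 0.740 over the 248 and 0.778 over the 862. The gaps are not replicates and were measured in the same libraries.

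Other SOX genes beside long gaps gave a narrower range. Of the 8 gaps that flank Sox2, Sox4, Sox9 and Sox11, those beside Sox9 had both the highest and the lowest mean level, 2.16 ± 0.133 (SD, n = 4) from Sox9 to Slc39a11 and 0.418 ± 0.0851 (SD, n = 4) from Kcnj2 to Sox9. The next highest was the gap from Dnajc19 to Sox2, at 1.43 in M and 1.24 in F of uninjured cords, and 1.47 in M and 1.40 in F at 1 d.p.i., and its values were below those of Sox9 to Slc39a11 in every SOX9 library. Its controls read 1.23 in M and 0.504 in F of uninjured cords, and 1.16 in M and 1.23 in F at 1 d.p.i. Those from Sox9 to Slc39a11 read 1.91 (M), 1.76 (F), 1.12 (M) and 1.14 (F) in the same order. At 1 d.p.i. the controls thus did not rank these gaps as the SOX9 libraries did. At the low end, the gap from Sox11 to Dcdc2c averaged 0.428 ± 0.0764 (SD, n = 4), which differs from Kcnj2 to Sox9 by less than the spread between libraries. The ratio of 1 d.p.i. to uninjured in the 8 gaps was between 1.02 and 1.23.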

How the data were processed

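The authors demultiplexed the CUT&Tag reads, mapped them to mm10 with Bowtie2 2.5.4 and removed duplicates with Picard 3.4.0. The deposited signal is whole-number coverage per library, not scaled for depth, with 20283253 stretches in 1 list, and the step that wrote it is not given in the sources used here. In each library 0 stretches overlapped and 0 abutting stretches had the same value. The members, lists and tests were chosen with earlier results of these data known.

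Coverage was averaged in 1-kb tiles and 10-kb bins with Python 3.11.15, numpy 2.4.6 and scipy 1.17.1, and divided by the library mean over chromosomes 1 to 19, X and Y. Each rise of the coverage was taken as the start of a fragment and each fall as an end, joined in sequence, so that pairs under overlap are not certain. For single values, exact two-sided permutation tests over libraries were used. Change in tiles and bins was fitted by limma 3.58.1 (R 4.3.3) to log2(level + 0.5) with a mean-variance trend, over the 4 SOX9 libraries, for all tiles or bins with a sum of at least 4, with Benjamini-Hochberg adjustment over all tested. Such fold changes understate those of low tiles. The fit was tested on simulated data with 4-fold changes and a fixed spread between libraries. It called none of the changed tiles drawn at its filter, few of those with higher coverage and most of the changed bins. Annotation was GENCODE M21 on GRCm38 (mm10).

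By rule, the text names the 10 desert tiles with the highest mean, any called tile or bin, the tiles overlapping IREN19 with the next 2 on each side, the 5 tiles nearest each end of Sox9, the longest 3 runs of high tiles, the coding neighbours and the genes inside. Of these, 1 tile and 1 run are not reported here. Groups came from the sample labels, and M and F mark sex and not pairs of one animal. Alternatives covered scaling, a cap, the grid, depth, pseudocounts, filters, the trend, a block for sex and each library left out. Intervals are at the 95% level.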

Additional observations from a re-analysis of the deposited data

Results flagged for a closer look

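Of the 5 planned comparisons of 1 d.p.i. with uninjured cords that have 1 value for each library, 3 moved in opposite directions in M and F. Over the whole desert the ratio of 1 d.p.i. to uninjured was 0.976 in M and 1.16 in F, and on the upstream side it was 0.793 in M and 1.39 in F. The ratio of the downstream to the upstream level changed by 1.45 times in M and by 0.748 times in F. With 1 library of each sex in a condition, how M and F differ was not tested, and sex cannot be told apart from the single library. The uninjured F library, which has the most fragments, had the lowest upstream level of the 4 SOX9 libraries, at 0.308, and the part of depth in these values was tested only by thinning. The downstream side as a whole moved the same way in both, by 1.15 times in M and 1.04 times in F, but its tiles beyond 250 kb did not (1.14 in M, 0.934 in F), nor did those from 50 to 100 kb (0.761 in M, 1.63 in F). The ratio of IREN19 was 2.61 in M, from 1 and 3 fragments, and 5.26 in F, from 1 fragment in each library, and with 1 kb on each side it was 0.954 in M and 2.95 in F. Among further regions that moved in opposite directions are the promoters of Kcnj2 (2.001 in M, 0.732 in F), Slc39a11 (3.13 in M, 0.401 in F), Sstr2 (1.07 in M, 0.164 in F) and Cog1 (4.48 in M, 0.560 in F), of which the Slc39a11 and Cog1 promoters overlap, the start tile of 2610035D17Rik (1.34 in M, 0.835 in F) and the upstream distance classes.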

How the results depend on the processing

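Results were recomputed 161 times under an alternative, 1 choice at a time, and in 151 the direction and the side of the threshold stayed. With 2 libraries against 2, the exact p cannot go below 0.333, so only the direction could move in those tests. The counts of 0 called tiles and 0 called bins in the desert were the same under all 14 alternatives of each, in which the smallest adjusted p in the desert was between 0.125 and 1.00 for tiles and between 0.212 and 1.00 for bins, while the genome gave 0 to 109 tiles (41 in the main setting) and 0 to 287 bins (45). With 1 library left out, the ratio of 1 d.p.i. to uninjured was 0.965 to 1.18 for the desert, 0.813 to 1.36 upstream and 1.05 to 1.13 downstream, the quotient of the sides was 0.797 to 1.37, SOX9 over control was 1.35 to 1.61, and IREN19 was 1.496 to 10.5. SOX9 over control passed the threshold with 1 library left out, the uninjured F control (1.61). Single libraries as an arm carry no test of their own. The desert ratio reversed to 0 when the median over the 1878 tiles with any SOX9 coverage replaced the mean, because that median is 0 in 3 of the 4 libraries and 0.314 in uninjured F. The upstream ratio reversed to 0.997 when libraries were thinned to the smallest, and the cause was not tested. The log2 change of tile_2088 reversed to 0.29 when thinned and that of tile_2099 to -0.033 with a trimmed mean of log ratios, and the cause was not tested. Thinning also moved that of the start tile of 4732490B19Rik from 1.63 to 0.78, of tile_1702 from 1.24 to 1.88 and of tile_1703 from 0.95 to 1.73. With pseudocounts of 0.1 and 2 the log2 changes were 3.42 and 0.95 for tile_1838 (2.04 in the main setting), -1.44 and -0.40 for tile_1837 (-0.76), 3.19 and 1.24 for the start tile of Gm11675 (2.09) and -1.85 and -0.69 for that of Gm11681 (-1.33). The pseudocount of 0.1 moved tile_1705 from -0.77 to -1.71, and that of 2 moved tile_1702 from 1.24 to 0.65. The labels pair no animals across conditions, and the replicate block gave ratios, without a test, of 1.07 for the desert, 1.09 upstream, 1.09 downstream, 1.099 for the quotient and 3.94 for IREN19 with sex as the block, and of 1.51 for SOX9 over control with the nuclei sample as the block. In the limma fits, sex as a term left the counts of called desert tiles and bins at 0. The exact test within the nuclei samples, added later, gave p = 0.25 for SOX9 over control of the desert. With shared control fragments left out, which was chosen after seeing the data, SOX9 over control was 2.41. This value rests on the uninjured M and 1 d.p.i. F controls, which were left with 0 desert fragments. The uninjured F and 1 d.p.i. M controls then read 0.748 and 0.550. The shifted grid does not apply to IREN19, whose ends are fixed.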

Other observations

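Over the 215 bins of 10 kb in the desert, Spearman's rho between SOX9 libraries was 0.481 to 0.559 for the 6 pairs, and 0.269 to 0.384 over its 2159 tiles. M and F of the same condition were no more alike than libraries of different conditions, at 0.522 for uninjured cords and 0.520 at 1 d.p.i., and the highest value, 0.559, was between uninjured F and 1 d.p.i. M. The log2 change from uninjured to 1 d.p.i. had the same direction in M and F in 105 of the 215 bins (48.8%), with medians of -0.07 in M and 0.20 in F. The 180 desert tiles with a repeat share of 50% or more had SOX9 levels of 1.05 in M and 0.607 in F of uninjured cords, and 0.661 in M and 0.788 in F at 1 d.p.i., and the other 1979 tiles 0.816 (M), 0.692 (F), 0.829 (M) and 0.797 (F).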
